A study of Homo sapiens with 4 samples.

Results

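NEAT1, MALAT1 and 5 genes for paraspeckle proteins (SFPQ, NONO, PSPC1, RBM14 and TARDBP) were followed in BEAS-2B, a human line of bronchial epithelial origin, where FER, a cytoplasmic tyrosine kinase, was targeted. These 7 genes are 7 of 39634 entries with values in the deposited table of raw read counts. NEAT1 was picked because its counts were higher in the libraries labelled shFer, so its difference between the groups is given as a description, with no test. The other 6 were picked by function: MALAT1 as the neighbouring nuclear RNA, the rest as proteins that bind NEAT1. The libraries labelled shFer (2), whose genotype label is Fer knockdown, came from BEAS-2B cells with a hairpin RNA against Fer. The control libraries (2, shControl) came from BEAS-2B cells with a control hairpin. All cells were grown in N2B27 medium, and polyadenylated RNA was taken up on oligo(dT) beads, per the labels. The hairpin sequences, and whether each line was 1 clone or a pool, are unknown: not given in the sources used here. Replicates are numbered, but nothing says that they came from separate cultures, so each p-value measures the spread among these 4 libraries alone, and that spread may be technical.

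Paraspeckles are bodies in the cell nucleus that form around NEAT1, a long non-coding RNA. One promoter gives a short, polyadenylated form (NEAT1_1) and a long form (NEAT1_2), and in human and mouse cells the long form is the scaffold without which the bodies do not assemble. SFPQ, NONO and PSPC1 are the DBHS proteins, a family of RNA-binding proteins that pair with each other and coat the long form, RBM14 is a prion-like protein that holds the body together, and TARDBP encodes TDP-43, which binds UG-rich RNA. MALAT1, transcribed from the next major non-coding locus, lies in nuclear speckles, which store splicing factors.

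Because the libraries were made by oligo(dT) selection, the ends of these RNAs and their A-rich stretches are shown first. They are taken from the GENCODE release 29 transcripts (GRCh38, plus strand of chromosome 11), with positions counted from the first base of the long NEAT1 transcript (22743 bases) or of a MALAT1 transcript of 8708 bases, in DNA letters. Neither MALAT1 nor NEAT1_2 is known to end in a normal poly(A) tail. Both end, after cleavage by RNase P, in a U-rich and A-rich structure, and capitals mark the U-rich letters TTTTGCTTTT and the A-rich letters AAAAAGCAAAA that both share:
MALAT1, bases 8250 to 8355: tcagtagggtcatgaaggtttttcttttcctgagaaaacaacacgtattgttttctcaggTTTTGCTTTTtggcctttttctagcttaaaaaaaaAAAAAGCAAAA
NEAT1 long form, bases 22633 to 22743: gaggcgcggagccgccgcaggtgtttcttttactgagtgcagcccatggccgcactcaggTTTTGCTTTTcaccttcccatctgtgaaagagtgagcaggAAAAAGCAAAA

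The first set of letters was found in 0.774% and the second in 0.328% of 14346 transcripts of other long intergenic non-coding RNA genes, and 0 of them held both (sense strand only, the first set not overlapping the second). The short form ends at a polyadenylation signal inside the long one, shown next with AATAAA in capitals:
NEAT1 long form, bases 3656 to 3745: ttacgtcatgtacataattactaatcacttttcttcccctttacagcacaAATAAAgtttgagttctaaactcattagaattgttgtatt

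The signal starts at base 3706 of 22743, so most of the long form lies past it. Of the 8 NEAT1 transcripts in GENCODE 29, 7 end within 4 kb of their start. AATAAA is a common set of letters, found in 6.09% of 100-base windows of the other long intergenic non-coding RNA transcripts. Past this signal, where most of the long form lies, it held 5 of its 5 runs of 10 or more A, up to 22 A from base 18046. Oligo(dT) could also bind there, which was not tested. Such runs were found in 5 of 227 100-base windows of the long form and in 0.604% of those of the other transcripts. MALAT1 had 1 such run, the 13 A that open its A-rich end above. The long form also carries the UG-rich stretches that TDP-43 is known to bind, of which the longest is shown with the repeat in capitals:
NEAT1 long form, bases 21447 to 21544: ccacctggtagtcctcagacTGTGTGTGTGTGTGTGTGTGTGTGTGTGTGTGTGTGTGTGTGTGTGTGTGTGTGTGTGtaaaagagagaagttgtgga

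It has 29 TG units. Of the 7 runs of at least 4 units, 6 lay past the signal of the short form, where most of the long form lies. TGTGTGTG was found in 8 of 227 100-base windows of the long NEAT1 transcript, in 0 of 87 MALAT1 windows, and in 0.588% of those of the other transcripts. These are matches of letters and were not tested as binding sites. Reads were deposited as 1 count per gene, so counts of the short form and of the long form cannot be told apart.

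Some facts of the whole table bear on the genes below. Library totals ran from 21422976 to 25169713 counts. FER itself had 404 and 535 counts in the libraries labelled shFer, against 334 and 459 in control, which goes against the knockdown label (log2 fold change 0.02 ± 0.17 SE, adjusted p = 0.976, edgeR). Without control replicate 1 it was at -0.16, and without replicate 2 of shFer at -0.08. Counts on the mitochondrial chromosome made up 9.62% and 9.37% of the libraries labelled shFer and 16.9% and 19.4% of the control libraries. Between the 2 control libraries the median gene differed by 0.26 (log2, absolute), and between the 2 libraries labelled shFer by 0.12. Of the epithelial markers, the keratins KRT8 (1520 to 1966 CPM, counts per 1000000 of the library total) and KRT18 (751 to 906) were abundant. EPCAM (2.57 to 5.24) and CDH1 (6.96 to 11.1) were low, the basal markers KRT5 and TP63 were below 1, and the mesenchymal marker VIM was at 946 to 1366. Of the other fibroblast and mesenchymal markers, COL1A1 was at 60.1 to 77.0 CPM and PDGFRB at 27.0 to 36.4, COL3A1 and COL1A2 reached at most 1.21 and 0.119, and DCN and LUM had 0 counts in every library. Of the blood cell markers given here, CD14 was at 15.01 to 23.24 CPM, PTPRC reached at most 0.263, and HBB and CD3E had 0 counts, where a count of 0 allows up to 3 counts of a library's total. The endothelial markers CDH5, VWF and KDR reached at most 1.51 CPM.

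NEAT1 RNA was 1.65-fold higher with shFer. In bulk RNA, a change in the number of cells that make it and a change in RNA per cell cannot be told apart. The gene lies at chr11:65422774-65445540 (GRCh38, plus strand, ENSG00000245532), and both forms start at its promoter. It had 59487 and 73394 counts in the libraries labelled shFer, against 31636 and 37388 in control. After scaling for library size and composition (TMM), this was 2619 and 2763 CPM in the libraries labelled shFer and 1547 and 1724 CPM in control. Both libraries labelled shFer lay above both control libraries, and the gap between the groups was wider than the gap within either of them. The means were 2691 ± 102 CPM in the libraries labelled shFer and 1636 ± 125 CPM in control (SD, n = 2 each). edgeR fitted a log2 fold change of 0.72 ± 0.11 SE.

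As a share of all counts, NEAT1 took 0.278% (95% Wilson interval 0.275 to 0.280) and 0.292% (0.289 to 0.294) of the libraries labelled shFer. It took 0.145% (0.144 to 0.147) and 0.164% (0.162 to 0.165) of the control libraries. These intervals cover counting error only and are narrower than the gap between libraries of 1 group. NEAT1 ranked 19th and 17th among all entries by count in the libraries labelled shFer and 45th and 33rd in control. The mitochondrial share was lower in the same libraries labelled shFer. Of the counts off the mitochondrial chromosome, NEAT1 took 0.307% and 0.322% in the libraries labelled shFer and 0.175% and 0.203% in control, and with that chromosome left out the log2 fold change was 0.71. In the exons of GENCODE 29, 2.13% of NEAT1's exonic bases are shared with other annotated loci, among them the microRNA gene MIR612 near its end.

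MALAT1 (ENSG00000251562, chr11:65497688-65506516, GRCh38), whose gene starts 52.15 kb past the end of NEAT1 on the same strand, did not pass the test. It had 9926 and 12123 counts in the libraries labelled shFer, against 8288 and 8955 in control. On the scaled values these were 437 and 456 CPM in the libraries labelled shFer, against 405 and 413 CPM in control. The groups did not overlap, but the gap between them, from 413 to 437 CPM, was little wider than the gap within the libraries labelled shFer. Fitted by edgeR, the log2 fold change was 0.13 ± 0.11 SE (95% interval -0.12 to 0.37, adjusted p = 0.599). An antisense locus that covers 4.49% of MALAT1's exonic bases in GENCODE 29 has no row of its own here, and without a stated strand setting its reads cannot be told apart from MALAT1's.

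**Figure D1:**
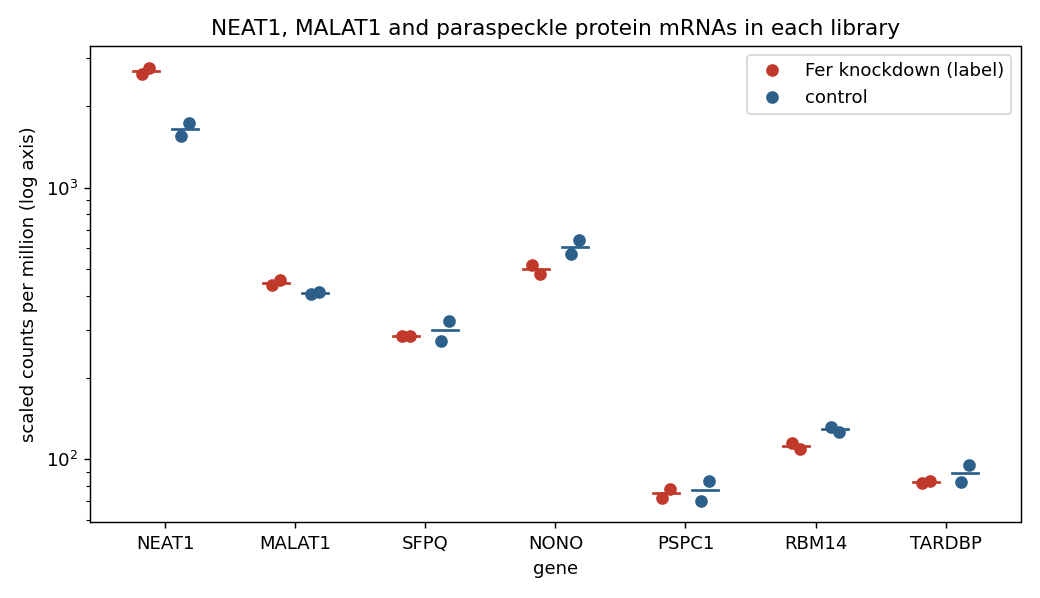
Scaled CPM (log axis) of the 7 genes in each library, with the libraries labelled shFer in red, left of control in blue, and a line at each group's mean. NEAT1 stands at 2619 and 2763 CPM in the libraries labelled shFer, against 1547 and 1724 CPM in control, and the groups of the other 6 genes lie closer to each other.

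None of the 5 paraspeckle protein mRNAs passed the test. Over the 6 genes other than NEAT1, 0 passed edgeR's quasi-likelihood test (Benjamini-Hochberg adjusted p under 0.05 over 15336 genes), where 0.646% of all genes did. At an unadjusted p under 0.05 there was 1 of the 6, NONO, against 17.7% of all genes. DESeq2 and limma-voom each called 0, against 3.78% and 1.16% of all genes. The median log2 fold change of the 6 was -0.09, beside 0.01 over all genes tested. Of the 6, the groups did not overlap in CPM for MALAT1 (higher) and for NONO and RBM14 (lower). That held for 49.2% of all tested genes (25.8% higher, 23.4% lower), so the share of the 6 is near the background. NEAT1, whose separation follows from its choice, is left out of this count.

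NONO (chromosome X) is the most abundant of the DBHS mRNAs per length and the partner of both other family members. It had 519 and 481 CPM in the libraries labelled shFer, against 569 and 642 CPM in control. Both libraries labelled shFer were below both control libraries. edgeR put the log2 fold change at -0.28 ± 0.12 SE (95% interval -0.54 to -0.01, unadjusted p = 0.0405). Adjusted over all 15336 genes tested, its p was 0.258, so the difference did not pass the threshold. With control replicate 1 left out, its log2 fold change was -0.37, and with control replicate 2 left out -0.21. It was -0.33 without replicate 1 of shFer and -0.23 without replicate 2 of shFer. In a fit without 1 control library, the spread comes from the libraries labelled shFer alone. NONO was called in each such fit, and because of that spread these calls are not read as results. A pseudogene, NONOP2, drew 1 to 8 counts per library.

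SFPQ (chromosome 1), which is also a splicing factor and a transcriptional repressor, had 285 and 284 CPM in the libraries labelled shFer, against 273 and 324 CPM in control. The 2 libraries labelled shFer lay between the 2 control libraries. The log2 fold change was -0.07 ± 0.12 (SE, 95% interval -0.35 to 0.21, adjusted p = 0.823 in edgeR's test). PSPC1 (chromosome 13), the family member named after the paraspeckle, had 72.3 and 77.9 CPM in the libraries labelled shFer, against 70.5 and 83.2 CPM in control. Again the groups overlapped, at a log2 fold change of -0.03 ± 0.14 (SE, 95% interval -0.34 to 0.27, adjusted p = 0.932). Its antisense gene PSPC1-AS2, which covers 0.747% of PSPC1's exonic bases, had 13 and 9 counts in the libraries labelled shFer and 3 and 5 in control, too few to be tested. The pseudogene PSPC1P1 had 0 to 4 counts per library. Scaling by library totals put SFPQ at 0.094 and PSPC1 at 0.13, with the median over all genes at 0.18. Without control replicate 1, SFPQ was at -0.19 and PSPC1 at -0.15. Without control replicate 2 they were at 0.037 and 0.0675.

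RBM14, on chromosome 11 with NEAT1, had 114 and 109 CPM in the libraries labelled shFer, against 132 and 126 CPM in control. The groups did not overlap, and the log2 fold change was -0.20 ± 0.12 (SE, 95% interval -0.47 to 0.07, adjusted p = 0.421 in edgeR's test). Without control replicate 2 it was -0.26. The read-through gene RBM14-RBM4, which shares 10.97% of RBM14's exonic bases in GENCODE 29, had 29 and 13 counts in the libraries labelled shFer and 11 and 33 in control, in a row of its own, beside 2599 to 2908 counts per library in the RBM14 row. The neighbouring gene RBM4 was at -0.11 and its relative RBM4B at -0.04 on the log2 scale (adjusted p = 0.776 and 0.928).

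TARDBP, on chromosome 1, had 82.0 and 83.3 CPM in the libraries labelled shFer, against 82.5 and 95.6 CPM in control. The groups overlapped, at a log2 fold change of -0.11 ± 0.13 (SE, 95% interval -0.40 to 0.18, adjusted p = 0.722 in edgeR's test), and it was at 0.056 when scaled by library totals. A locus that is annotated over 28.99% of TARDBP's exonic bases in GENCODE 29 has no row used here, and how its reads were counted is not given in the sources used here.

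**Figure D2:**
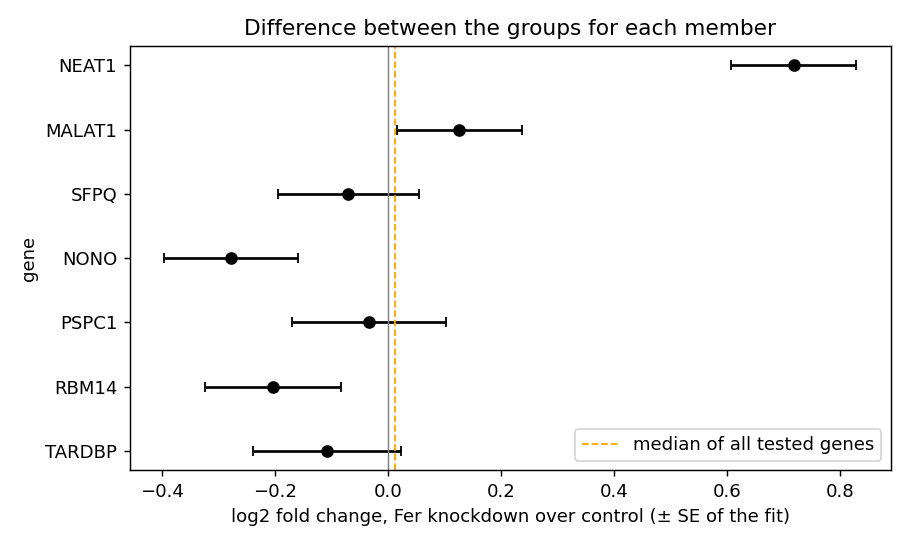
Log2 fold change of each gene, libraries labelled shFer over control, with bars for the SE of the edgeR fit and a dashed line at the median of all tested genes (0.01). NEAT1 lies at 0.72, MALAT1 at 0.13, and the 5 protein mRNAs between -0.28 (NONO) and -0.03 (PSPC1), of which SFPQ, PSPC1 and TARDBP were above 0 when scaled by library totals.

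In control, the protein mRNAs SFPQ, NONO, PSPC1 and TARDBP were each lower in replicate 1 than in replicate 2, by 0.25, 0.17, 0.24 and 0.21 on the log2 scale. RBM14 ran the other way, 0.07 higher in replicate 1. In the libraries labelled shFer the same 5 genes differed between replicates by at most 0.11. A control gap of this size is close to the 0.26 of the median gene, and it is larger than the group differences of SFPQ, PSPC1 and TARDBP. NEAT1 was also lower in control replicate 1, by 0.16, and MALAT1 by 0.03.

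Ratios of 2 genes within a library do not depend on how libraries are scaled. There were 5.99 and 6.05 NEAT1 counts per MALAT1 count in the libraries labelled shFer, against 3.82 and 4.18 in control. The groups did not overlap, and the ratio was higher by 0.59 on the log2 scale. Per count of SFPQ, NONO and PSPC1 summed, NEAT1 had 2.99 and 3.28 counts in the libraries labelled shFer, against 1.70 and 1.64 in control, higher by 0.91 on the log2 scale. The widest gap for a single partner was that to NONO, with 5.05 and 5.75 NEAT1 counts per NONO count in the libraries labelled shFer and 2.72 and 2.69 in control (1.00 on the log2 scale). Each of these ratios carries the choice of NEAT1 and is a description.

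Other ratios were those between members that were not chosen for their values. Their sizes cannot be set against the ratios above, which carry the choice of NEAT1. SFPQ had 0.550 and 0.590 counts per NONO count in the libraries labelled shFer, against 0.479 and 0.505 in control, and PSPC1 had 0.140 and 0.162 per NONO count, against 0.124 and 0.130 in control. MALAT1 had 0.499 and 0.542 counts per count of the 3 DBHS mRNAs in the libraries labelled shFer, against 0.444 and 0.394 in control. The groups did not overlap in these ratios, and the share of other gene pairs for which that holds was not computed. With 2 libraries against 2, no exact permutation test can reach the 0.05 threshold, and none was run.

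**Figure D3:**
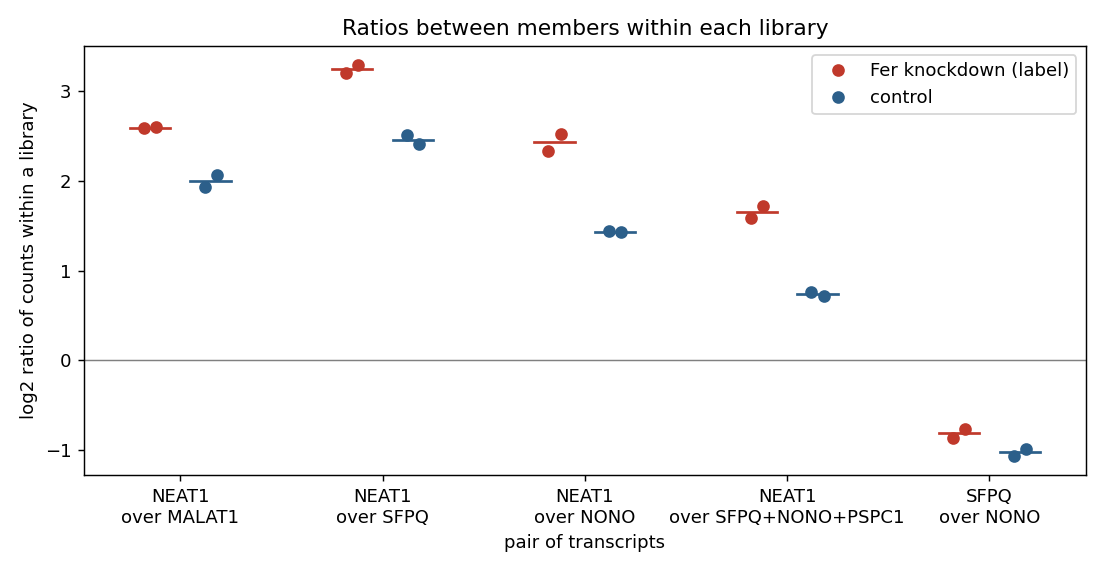
Log2 ratio of counts between pairs of transcripts within each library, with the libraries labelled shFer in red, left of control in blue, and a line at each group's mean. The ratio of NEAT1 to MALAT1 was higher by 0.59 and that of NEAT1 to the sum of SFPQ, NONO and PSPC1 by 0.91. SFPQ over NONO was higher by 0.21.

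Levels of different genes were compared per kilobase of the deposited gene length. In the libraries labelled shFer the order of level was NEAT1 (118 ± 4.47 CPM per kb), NONO (94.4 ± 5.02), MALAT1 (50.6 ± 1.55), SFPQ (38.3 ± 0.15), RBM14 (17.3 ± 0.541), PSPC1 (15.6 ± 0.809) and TARDBP (15.5 ± 0.172; SD, n = 2 each). In control the order of level was NONO (114 ± 9.75 CPM per kb), NEAT1 (71.8 ± 5.49), MALAT1 (46.3 ± 0.609), SFPQ (40.2 ± 4.91), RBM14 (19.9 ± 0.697), TARDBP (16.7 ± 1.74) and PSPC1 (16.0 ± 1.86; SD, n = 2 each). With these lengths NEAT1 and NONO changed places between the groups, a description that carries the choice of NEAT1. PSPC1 and TARDBP, whose libraries overlap in both groups, cannot be ordered. NEAT1's level rests on its full length of 22767 bases. If every read came from a short transcript of 3441 bases, it would be 761 and 803 CPM per kb in the libraries labelled shFer and 450 and 501 in control. That would be above NONO in both groups, so its place in the order depends on the mix of forms.

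Other proteins found in paraspeckles were taken as a list of 32 genes, of which 31 were tested. Of these, 0 rose and 0 fell in edgeR's test, where 0.280% of all genes rose and 0.365% fell. An unadjusted p under 0.05 was found for 7 (17.7% of all genes), and DESeq2 called 2 (3.78% of all genes) and limma-voom 0 (1.16%). Their median log2 fold change was -0.04, beside 0.01 over all genes, with 12 above 0 and 19 below. The smallest p-values were those of UBAP2L, a stress granule protein, and HNRNPUL1, an RNA-binding protein of the hnRNP U family. UBAP2L had 241 and 251 CPM in the libraries labelled shFer, against 334 and 419 CPM in control (log2 fold change -0.61, adjusted p = 0.0669). HNRNPUL1 was at -0.51 (adjusted p = 0.0831). edgeR called 14 of the list without control replicate 1, where it called 29.5% of all genes, and 12 without control replicate 2, where it called 20.6%. MATR3, named after its values were seen, with 41 and 44 counts in the libraries labelled shFer and 11 and 23 in control, is annotated as 2 overlapping loci and its value is uncertain.

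Some proteins that, besides SFPQ, NONO and RBM14, are known to be needed for paraspeckles in human cells were named after their values were seen. HNRNPK, which keeps the short form from being made, had 509 and 532 CPM in the libraries labelled shFer, against 448 and 461 CPM in control, and its groups did not overlap. It was at 0.20, DAZAP1 at -0.11, HNRNPH3 at 0.04 and SMARCA4, a chromatin remodeller, at -0.18 on the log2 scale (adjusted p = 0.393, 0.666, 0.895 and 0.467).

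The choice between the 2 forms of NEAT1 is made by cleavage and polyadenylation factors, which recognise signals like the AATAAA shown above. Of 18 tested, 0 rose and 0 fell in edgeR's test, and the median log2 fold change was -0.08. An unadjusted p under 0.05 was found for 5 (17.7% of all genes), and DESeq2 called 3 (3.78% of all genes) and limma-voom 0 (1.16%). CLP1, a kinase of the cleavage complex, had 22.7 and 22.7 CPM in the libraries labelled shFer, against 14.2 and 12.0 CPM in control (log2 fold change 0.79, adjusted p = 0.0552). FIP1L1, which brings the poly(A) polymerase to the signal, had 19.6 and 19.2 CPM in the libraries labelled shFer, against 29.8 and 31.8 CPM in control (log2 fold change -0.67, adjusted p = 0.0639). The groups did not overlap in either gene, and neither passed. With control replicate 1 left out 7 of the list passed, and likewise 7 with control replicate 2 left out (29.5% and 20.6% of all genes in these fits). NUDT21 and CPSF6, the pair that in human cells directs processing to the short form's signal, were at 0.19 and -0.16 (adjusted p = 0.546 and 0.599), and were named after their values were seen.

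MALAT1 is matured by RNase P and by the tRNA enzyme ELAC2, and nuclear exosome cofactors degrade unprotected nuclear RNA. Of 16 such genes tested, 0 rose and 0 fell in edgeR's test, 4 had an unadjusted p under 0.05 (17.7% of all genes), DESeq2 called 1 (3.78% of all genes) and limma-voom 0 (1.16%), and the median log2 fold change was 0.01. PABPN1, the nuclear poly(A)-binding protein, was at 0.55 (adjusted p = 0.123) and RPP38, an RNase P subunit, at -0.47 (adjusted p = 0.224). Of 15 nuclear speckle proteins tested, 0 rose and 0 fell, 4 had an unadjusted p under 0.05, DESeq2 called 1 and limma-voom 0, beside the same shares of all genes, with a median of -0.01. SRRM2, a speckle core protein, was at -0.57 (adjusted p = 0.0893) and the splicing factor SRSF2 at -0.32 (adjusted p = 0.212). Without control replicate 1, 3 of the RNase P and decay list and 6 of the speckle list passed, where 29.5% of all genes did. When control replicate 2 was left out instead, 4 and 5 passed, where 20.6% of all genes did.

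Of 6 tested genes for transcription factors that act on the NEAT1 promoter in other human or mouse cells, 0 passed in edgeR's test, 0 had an unadjusted p under 0.05 (17.7% of all genes), and DESeq2 and limma-voom called 0 each (3.78% and 1.16%). Their median log2 fold change was -0.08. HIF1A was at -0.52 (adjusted p = 0.282) and the heat shock factor HSF1 at -0.22 (adjusted p = 0.374). HIF1A had 124 and 119 CPM in the libraries labelled shFer, against 121 and 227 CPM in control, so that the groups overlapped and control replicate 2 stood apart. Of the 6, 2 passed without control replicate 1 (29.5% of all genes) and 1 without control replicate 2 (20.6%).

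Among 20 other long non-coding RNAs, 1 rose and 0 fell in edgeR's test, where 0.280% of all genes rose and 0.365% fell, and their median log2 fold change was -0.01, with 10 above 0 and 10 below. The 1 was RMRP, the RNA of RNase MRP, which is not polyadenylated. It had 25 and 61 counts in the libraries labelled shFer, against 2 and 4 in control, a ratio that rests on few control reads (adjusted p = 0.0473). It lost its call in limma-voom, under a filter of 5 CPM, which it did not pass, and when replicate 2 of shFer was left out, which left 0 of the list called. With control replicate 1 left out 8 of 21 tested passed, and likewise 8 of 21 with control replicate 2 left out, where 29.5% and 20.6% of all genes did. NORAD, a cytoplasmic RNA that binds Pumilio proteins, was named after its values were seen. It had 342 and 361 CPM in the libraries labelled shFer, against 218 and 252 CPM in control (log2 fold change 0.58, adjusted p = 0.0578).

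**Figure D4:**
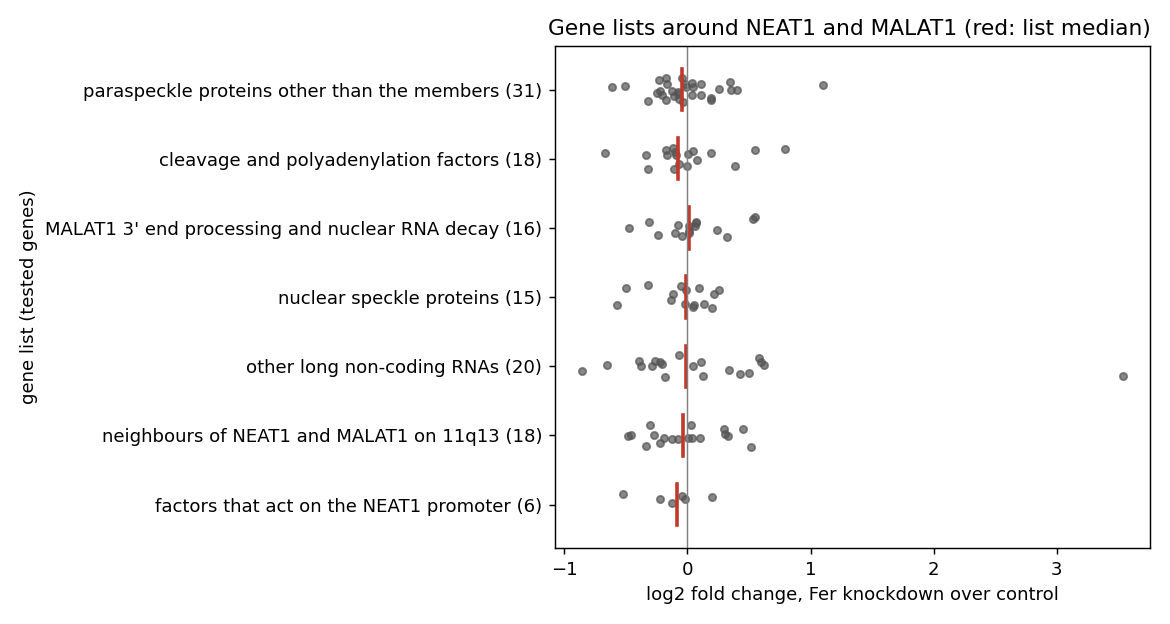
Log2 fold change, libraries labelled shFer over control, of the tested genes of 7 lists, each point a gene and each red bar the list's median. The medians lie between -0.08 and 0.01, and the point far to the right among long non-coding RNAs is RMRP.

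The genes around NEAT1 and MALAT1 on chromosome 11 were set beside them by distance. Of 18 tested neighbours, 0 rose and 0 fell in edgeR's test, and the median log2 fold change was -0.04, with 9 above 0 and 9 below. An unadjusted p under 0.05 was found for 5 (17.7% of all genes), and DESeq2 called 3 (3.78% of all genes) and limma-voom 0 (1.16%). FRMD8, which encodes a cofactor of the shedding protease complex of ADAM17, is the nearest of these 18 before NEAT1. FRMD8 ends 9.2 kb from the start of NEAT1 on the same strand. It had 127 and 124 CPM in the libraries labelled shFer, against 94.2 and 80.5 CPM in control (log2 fold change 0.52 ± 0.13 SE, adjusted p = 0.0924). RELA, the NF-kB subunit p65, had 119 and 114 CPM in the libraries labelled shFer, against 156 and 169 CPM in control (log2 fold change -0.48 ± 0.12 SE, adjusted p = 0.0924). Neither passed. Of the list, 8 passed without control replicate 1 (29.5% of all genes) and 7 without control replicate 2 (20.6%).

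**Figure D5:**
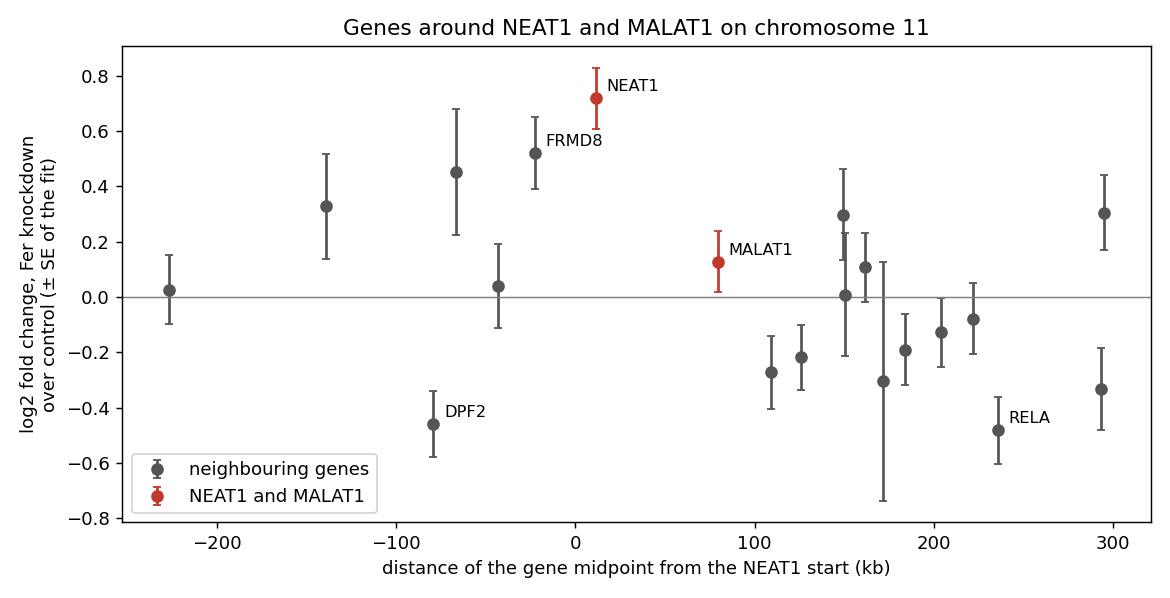
Log2 fold change (libraries labelled shFer over control, bars for SE) of genes around NEAT1 and MALAT1, by the distance of each gene's midpoint from the start of NEAT1 in kb. NEAT1 (0.72) and FRMD8 (0.52) lie highest, MALAT1 lies at 0.13, and RELA and DPF2 lie lowest at -0.48 and -0.46.

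The genes whose pattern over the 4 libraries lay nearest to that of NEAT1, by the distance between centred log2 CPM values, were SPAST (distance 0.06), ZNF324B (0.10), COBL (0.12), GCH1 (0.12) and INSIG2 (0.13). Those nearest to MALAT1 were VDAC1 (0.01), CHMP7 (0.01), CASP1 (0.01), DUSP8 (0.02) and PPM1H (0.02). With 4 libraries in 2 groups, a small distance means only a like difference between the groups and a like gap between replicates. No gene of the lists described above was among these 10.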

How the data were processed

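The authors deposited raw counts in 1 table, with a length and a symbol for each gene, per the file headers. The lengths equal those of GENCODE 29 for 4 of the 7 genes. They differ for RBM14 (6480 bases deposited, 3937 in GENCODE 29), TARDBP (5317 and 6071) and SFPQ (7419 and 7426). The shares of exonic bases given for RBM14 and TARDBP may therefore differ in the annotation that was counted. HISAT2, featureCounts, DESeq2 and the builds hg19 and mm10 are named in the submitters' processing notes, without versions or roles. The strand setting, the annotation release and the treatment of reads over 2 genes remain unknown: not given in the sources used here. One row without values was left out. The column of replicate 1 of Fer knockdown has a shortened name and was matched as the only such library with that number. Chromosomes and exon overlaps came from GENCODE 29, which matched 39582 of 39635 identifiers.

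The test was edgeR 4.0.16 under R 4.3.3 (filterByExpr, TMM, quasi-likelihood test, two-sided, no block, Benjamini-Hochberg over 15336 genes, threshold 0.05). Each SE is the size of the log2 fold change over the square root of its F value. The steps were tested on simulated data. The genes, lists and tests were chosen with earlier results of these data known. Named were the 7 genes, FER, list members past the threshold or the 2 with the smallest p, overlapping or copied loci with a count, and the 5 nearest patterns (mean of at least 5 CPM); others are said to be named after their values were seen. Alternatives were DESeq2 1.42.0, limma-voom (limma 3.58.1), other scalings and filters, the replicate block, no mitochondrial genes, and each library left out. Depth was 21422976 to 25169713 counts, and intervals cover counting error only. Some single genes of the lists are not reported here.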

Additional observations from a re-analysis of the deposited data

How the results depend on the processing

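NEAT1 was picked for its rise in these same libraries, so its values here and its ratios below are a description. It stayed above control in all 13 alternatives, at 0.64 to 0.77 (log2) with 1 library left out and 0.70 to 0.88 otherwise. The 0.88 came from scaling by library totals. That scaling put the median over all genes at 0.18 and turned SFPQ, PSPC1 and TARDBP to 0.094, 0.13 and 0.056. MALAT1 (0.09 to 0.29), NONO (-0.37 to -0.11) and RBM14 (-0.26 to -0.04) kept their signs. With 1 library left out, the group left with 1 library is assumed to vary like the other. SFPQ then ran from -0.19 to 0.037 (turned without control replicate 2), PSPC1 from -0.15 to 0.0675 (turned without control replicate 2 and without replicate 1 of shFer, 0.02), TARDBP from -0.22 to -0.02, NONO from -0.37 to -0.21 and RBM14 from -0.26 to -0.17. FER ran from -0.16 (without control replicate 1) to 0.19, and was at -0.08 without replicate 2 of shFer. The ratio of NEAT1 to MALAT1 was higher by 0.53 to 0.66 and that to the DBHS sum by 0.84 to 0.97. The causes were not tested.

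Of all genes, 99 passed (43 higher, 56 lower), against 192 (81 and 111) with upper-quartile factors, 443 (396 higher) with library totals, 580 (249 and 331) in DESeq2, 178 (75 and 103) in limma-voom, 993 (526 and 467) without a filter, 35 lower without mitochondrial genes, and 56 to 4734 (31 to 2344 higher, 25 to 2390 lower) with 1 library left out. With the replicate block, 990 passed (537 and 453). Replicate 1 deviated from its group's mean with a correlation of 0.04 over genes between the groups. This value cannot tell whether libraries of the same number shared a culture or a batch, which was not tested. Among the members other than NEAT1, no call changed under the block. Calls did change with 1 control library left out: SFPQ and NONO without control replicate 1, NONO and RBM14 without control replicate 2. In those fits the spread comes from the libraries labelled shFer alone, so these calls are not read as results.

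Listed genes called were, in the order paraspeckle proteins, polyadenylation factors, MALAT1 processing, speckle proteins, non-coding RNAs, neighbours and promoter factors, 0, 0, 0, 0, 1, 0 and 0. They were 2, 2, 1, 0, 3, 1 and 0 with library totals, 2, 3, 1, 1, 2, 3 and 0 in DESeq2, 2, 3, 1, 2, 3, 3 and 1 without a filter and 2, 3, 1, 1, 4, 3 and 0 with the replicate block. Upper-quartile factors called 1 polyadenylation factor; limma-voom and the 5 CPM filter called 0 non-coding RNAs. With 1 library left out the lists had 0 to 14, 0 to 7, 0 to 4, 0 to 6, 0 to 8, 0 to 8 and 0 to 2. With library totals, the list medians were 0.12, 0.09, 0.18, 0.16, 0.15, 0.13 and 0.08. Counts of few reads (RMRP, PSPC1-AS2, NONOP2) are limited by depth.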
